A study of Mus musculus with 6 samples.

Results

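The steady-state transcriptome of wild-type megakaryocytic-erythroid progenitors (MEPs) was described from 3 RNA-seq libraries, the columns labelled WT 1, WT 2 and WT 3 among the 6 libraries of the series. The other 3 libraries came from Tmprss6-/- (KO) mice, a model of iron deficiency, and entered no result here. Each library held RNA from marrow cells of 3 mice that were pooled before sorting. The gate required cKit and CD150 on the surface and excluded cells with lineage markers, Sca, Fc gamma receptors (FcgR), CD105 or CD41. The labels give WT as the genotype and no strain, age, sex or treatment, so each pool is an average over its mice and over any cell states inside the gate. The kits were SMART-Seq v4, which amplifies cDNA from very small amounts of RNA, and Nextera XT, and the strand of origin of a read is lost with them.

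MEPs are bone marrow progenitors that can give rise to red cells through erythroblasts and to platelets through megakaryocytes. The zinc finger factors GATA1 and GATA2 act with TAL1, LMO2 and LDB1 on the enhancers of both lineages, while KLF1 drives red cell genes and FLI1 drives megakaryocyte genes. The receptor tyrosine kinase KIT and the erythropoietin receptor EPOR carry the survival and growth signals of stem cell factor and erythropoietin.

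The deposited table listed 52459 genes with whole-number read counts, 21926 of them protein-coding. Total counts were 22986837 in WT 1, 14002110 in WT 2 and 13666585 in WT 3. Levels of 1 gene across pools are given as CPM, counts per 1000000 of the library size after TMM scaling. Levels of different genes are compared as TPM, which also divides by the length of the longest annotated transcript. That transcript need not be the form the cells carried, so ranks and shares per length are uncertain where the 2 differ. Their dependence on the length used was not tested. A gene was called on at 1 CPM or more in every pool and off at 3 counts or fewer in every pool. A count of 3 corresponded to 0.136, 0.205 and 0.220 CPM in WT 1, WT 2 and WT 3. A gene on was called stable when its highest pool was at most 1.5 times its lowest, and variable when it was over 3 times its lowest. With 1 group and 3 pools no test was made, and the SD given covers the spread between pools, which the labels call biological replicates. Gene coordinates are as deposited, and GRCm38.p3 is the mouse build in the submitters' processing notes.

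The 5 genes taken as markers of the progenitors were on in all 3 pools. Of them, only Kit encodes a protein used in the gate. Klf1 (ENSMUSG00000054191, chr8:84901928-84905291, plus strand) stood at 521, 502 and 686 CPM in WT 1, WT 2 and WT 3. Gata1 (ENSMUSG00000031162, chrX:7959260-7978071, minus strand) stood at 435, 543 and 629 CPM in the same order. Epor (ENSMUSG00000006235, chr9:21958897-21963506, minus strand) stood at 115, 156 and 134 CPM. These 3 genes were stable by CPM, with the highest pool 1.37, 1.45 and 1.36 times the lowest for Klf1, Gata1 and Epor. Kit (ENSMUSG00000005672, chr5:75574916-75656722, plus strand) was variable, at 385, 816 and 1691 CPM, a range of 4.39-fold. Gata2 (ENSMUSG00000015053, chr6:88193891-88207032, plus strand) was also variable, at 267, 437 and 839 CPM, a range of 3.14-fold. Both were lowest in WT 1 and highest in WT 3. Without WT 1 the ranges of Kit and Gata2 were 2.07-fold and 1.92-fold, and without WT 3 they were 2.12-fold and 1.64-fold, so neither was then variable. After the trend with transcript length described further on was removed, 0 of the 5 markers were stable and 0 variable. Per length, Klf1 was the highest of the 5 at 852 ± 262 TPM (SD, n = 3) and Epor the lowest at 175 ± 43.9 TPM.

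The 250 bases before the transcription start were read from RefSeq (GRCm38.p6) for 4 of these genes, because the marker genes fell into different promoter types. In the lines that follow, written 5′ to 3′ on the gene's strand, capitals mark CG dinucleotides and, in Klf1 and Epor, the hexamer AGATAA or TGATAA on either strand, letters that GATA factors are known to recognise. The windows are chr5:75574737-75574986 (plus) for Kit, chr6:88193641-88193890 (plus) for Gata2, chr8:84901732-84901981 (plus) for Klf1 and chr9:21963577-21963826 (minus) for Epor.
Kit: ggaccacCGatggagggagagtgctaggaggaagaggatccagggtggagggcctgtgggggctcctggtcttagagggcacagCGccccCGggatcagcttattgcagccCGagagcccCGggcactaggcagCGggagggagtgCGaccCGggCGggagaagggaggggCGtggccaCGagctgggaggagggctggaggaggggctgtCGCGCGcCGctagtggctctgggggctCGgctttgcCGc
Gata2: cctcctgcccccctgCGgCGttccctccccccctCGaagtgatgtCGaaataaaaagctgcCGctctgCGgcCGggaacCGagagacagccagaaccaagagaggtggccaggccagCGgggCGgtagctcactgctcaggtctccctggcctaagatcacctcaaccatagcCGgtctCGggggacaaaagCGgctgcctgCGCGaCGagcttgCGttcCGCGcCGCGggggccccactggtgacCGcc
Klf1: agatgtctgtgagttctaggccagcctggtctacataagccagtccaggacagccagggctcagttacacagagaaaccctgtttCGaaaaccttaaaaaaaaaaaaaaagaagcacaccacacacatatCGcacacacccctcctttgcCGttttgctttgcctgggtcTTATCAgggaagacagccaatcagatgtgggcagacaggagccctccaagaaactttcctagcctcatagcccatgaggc
Epor: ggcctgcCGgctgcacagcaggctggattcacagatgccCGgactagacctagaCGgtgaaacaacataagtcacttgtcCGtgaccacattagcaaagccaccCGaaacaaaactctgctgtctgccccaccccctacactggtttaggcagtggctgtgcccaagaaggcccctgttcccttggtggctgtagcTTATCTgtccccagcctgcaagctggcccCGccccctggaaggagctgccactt
Kit held 17 CG dinucleotides and Gata2 held 22, whereas Klf1 held 3 and Epor 6. Klf1 held the hexamer 80 bases before the start and Epor 54 bases before it, and neither Kit nor Gata2 held it in this window. The bases after the RefSeq start of Epor were not found in its GENCODE M21 transcripts, so its distance is less certain. For Kit and Gata2, 2 starts each are listed, and only that nearest the gene start was read. The RefSeq window of Gata1, not printed because its start lies 10161 bases from the gene start in the deposited table, held 2 CG dinucleotides. Klf1, Gata1 and Epor thus held fewer CG dinucleotides than Kit and Gata2, which is a description of 5 genes only.

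Across the genes on, CG-rich starts prevailed. A RefSeq window was matched for 16902 of the 21926 protein-coding genes (77.1%), and for 81.3% of those on. Genes on held a median of 16 CG dinucleotides (interquartile range 10 to 23), and 77.0% held 10 or more. Over all 32851 RefSeq windows of the same length, the median was 6 and 37.8% held 10 or more. All windows include further starts of the same gene and genes not matched, whereas 1 window was kept per matched gene. The sets are thus unlike, here and in the shares of all windows that follow. The share with 10 or more rose with level, from 70.5% to 81.4% between the lowest and the highest of 4 equal groups of genes on. The hexamer stood in 8.88% of the windows of genes on and in 16.6% of all windows. The letters TATAAA stood on either strand in 5.74% and 12.4%. Windows were found for only 73.2% of genes off, so no comparison with them was made. Among the lists, 9 of 13 matched genes for globins and late erythroblast proteins held the hexamer, against 0 of 20 for JAK-STAT signalling, and the median number of CG dinucleotides was 4 and 13.5. The 16 matched eosinophil, basophil and mast cell genes had a median of 1 CG dinucleotide and the hexamer in 8. These lists were picked for their values, and their members were counted whether on or not. Low CG medians were also seen for megakaryocyte and platelet (4), neutrophil (3) and T and NK cell genes (2). The hexamer was also absent from the 18 matched fatty acid and cholesterol synthesis genes.

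Of all 52459 genes, 11485 (21.9%) were on, 34280 (65.3%) were off and 6694 lay between. Of the protein-coding genes 10381 (47.3%) were on and 8650 (39.5%) were off, 7275 of them with a count of 0 in all 3 pools. The share of protein-coding genes on was lowest for chromosome X among chromosomes 1 to 19 and X, at 35.2%, and highest for chromosome 12, at 55.5%. Counts were spread over many genes. The 10 most abundant genes took 3.91%, 3.64% and 2.84% of the counts in WT 1, WT 2 and WT 3, and the top 1000 took 54.0%, 49.5% and 46.5%. WT 3 was thus the most even of the pools at both depths of the ranking.

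**Figure D1:**
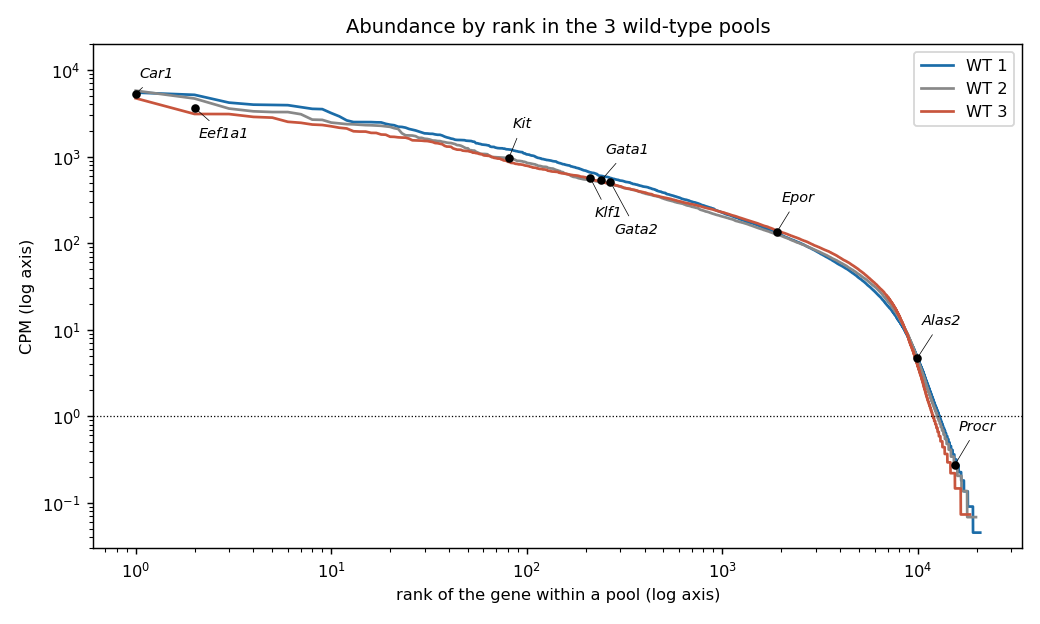
CPM of every gene with a count (vertical, log axis) against its rank in each pool (horizontal, log axis). The lines of WT 1, WT 2 and WT 3 start near 5490, 5774 and 4724 CPM at the first rank, and black points mark the mean of named genes at their mean rank, from Car1 at rank 1 through Kit at rank 81 to Epor at rank 1903. The dotted line is at 1 CPM.

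The most abundant gene was Car1, the carbonic anhydrase of early erythroid cells, which ranked first by mean CPM and by mean TPM, although in WT 1 it was below Gpx1 per length (8771 against 9202 TPM). Car1 stood at 5490, 5774 and 4724 CPM, within 1.22-fold, and at 10020 ± 1198 TPM. Gpx1, the glutathione peroxidase that removes hydrogen peroxide, ranked second per length at 7425 ± 1945 TPM, and its CPM was 5171, 3590 and 2239. Next per length came B2m, the light chain of MHC class I, at 5430 ± 974 TPM, and Eif5a, a translation factor, at 5368 ± 161 TPM. Among the top 15 by reads were also Eef1a1 (elongation factor 1), Atp5b (the ATP synthase beta chain), Ldha (lactate dehydrogenase) and Slc25a5 (the ADP and ATP carrier of mitochondria). Atp5b was the steadiest of these 4, at 2917, 3087 and 2875 CPM. Slc25a5 was the least steady of them, at 3724, 2416 and 1612 CPM, with WT 1 high and WT 3 low.

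All 30 erythroid and megakaryocyte transcription factors on the list were on, against 47.3% of protein-coding genes. They spanned 2.53 TPM for Erg to 968 TPM for Myc, with a median of 46.5 TPM beside 24.8 TPM over all genes on. Myc, the growth regulator, stood at 647, 774 and 1473 CPM, with WT 3 apart from WT 1 and WT 2. Nfe2, which drives globin and platelet genes, was nearly level at 786, 796 and 817 CPM. Hmgb3, a chromatin protein of early progenitors, was also stable at 601, 531 and 531 CPM. Of the 30, 11 were stable, beside 34.5% of genes on, and 5 were variable, beside 11.3%. GATA1 and GATA2 transcripts were both present, with Gata1 taking 75.3%, 70.0% and 58.5% of their summed TPM in WT 1, WT 2 and WT 3. Their longest transcripts are 1902 and 3571 nt, and the pools differed along transcript length, as described further on. With that trend removed, log2 differences from the mean of the pools were -0.42, 0.05 and 0.37 for Gata1. For Gata2 they were -0.55, -0.02 and 0.60. KLF1's counterpart Fli1 stood far lower per length, at 35.7 ± 19.2 TPM, and its CPM was 30.6, 48.5 and 72.3. Of the 18 factors of other lineages 8 were on, near the 47.3% of protein-coding genes, 1 was off and 9 lay between. Without WT 3 the number on was 12, and at 5 CPM in each pool it was 2. Spi1, the PU.1 factor of myeloid cells, was level at 45.2, 46.9 and 45.05 CPM. Irf8, of monocytes and dendritic cells, was uneven at 36.5, 29.3 and 12.4 CPM. Pax5, which commits B cells, was off, and Cebpa, of granulocytes, stood at only 1.90, 2.74 and 2.57 CPM. Stem and multipotent progenitor genes were mostly on at 1 CPM (20 of 24), but at 5 CPM in each pool the number was 13. They were led per length by Cd48, a surface protein of committed progenitors, and Txnip, an inhibitor of glucose uptake. Mecom was on near the threshold, at 1.22, 2.12 and 2.35 CPM, and Hoxb5 and Fgd5 were the 2 off.

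The sort gate can be set beside the transcripts of the proteins used in it. Kit is given with the markers above. Slamf1, which encodes CD150, stood at 23.8, 29.6 and 48.6 CPM. Itga2b, which encodes CD41, stood at 89.7, 114 and 151 CPM, and Eng, which encodes CD105, at 55.5, 83.0 and 123 CPM. Both transcripts were on in every pool although their proteins were gated out, and Slamf1 of the positive gate was lower per length (18.0 TPM) than Itga2b (79.7 TPM) or Eng (59.5 TPM). Ly6a, which encodes Sca-1, stood at 2.17, 2.67 and 1.39 CPM, and Fcgr3 and Fcgr2b, of the Fc gamma receptors, at 17.9, 6.91 and 2.79 CPM and at 4.76, 3.90 and 3.45 CPM. These 3 genes of the negative gates were also on. In pooled cells, fewer cells with a transcript and less of it per cell cannot be told apart.

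Among 33 cytokine and growth factor receptors 23 were on, beside 47.3% of protein-coding genes, and Il5ra was off. Ifngr1, the interferon gamma receptor chain, led per length at 1420 ± 229 TPM and was stable at 1293, 1354 and 1332 CPM. Kit and Epor followed it. Other receptors were uneven, in opposite directions. Tek, the angiopoietin receptor, stood at 10.3, 21.4 and 72.4 CPM. Flt3 and Csf1r, receptors of lymphoid and myeloid progenitors and of macrophages, stood at 43.2, 30.9 and 7.70 CPM and at 13.2, 10.6 and 1.54 CPM. Downstream, 22 of 23 JAK-STAT genes were on, beside 47.3% of protein-coding genes. Jak1 took 57.5% ± 2.32 of the summed TPM of the 4 Janus kinases and Jak2, which signals for Epor, took 17.9% ± 3.68. Stat5a and Stat5b, the factors that these kinases activate, took near equal shares at 56.9% ± 5.68 and 43.1%. Of the 22 genes, 18 were highest in WT 3, as were 5653 of all 11485 genes on, and the list's median log2 difference from the mean of the 3 pools was -0.52, -0.09 and 0.62 in WT 1, WT 2 and WT 3. Over all genes on these medians were -0.07, -0.02 and 0.09. Nuclear hormone receptors were on in 11 of 18 cases, not far from the 47.3% of protein-coding genes, led by Rxrb, the common partner, at 113 ± 42.0 TPM. Nr3c1, the glucocorticoid receptor that sustains red cell progenitors under stress, stood at 64.2, 104 and 144 CPM.

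**Figure D2:**
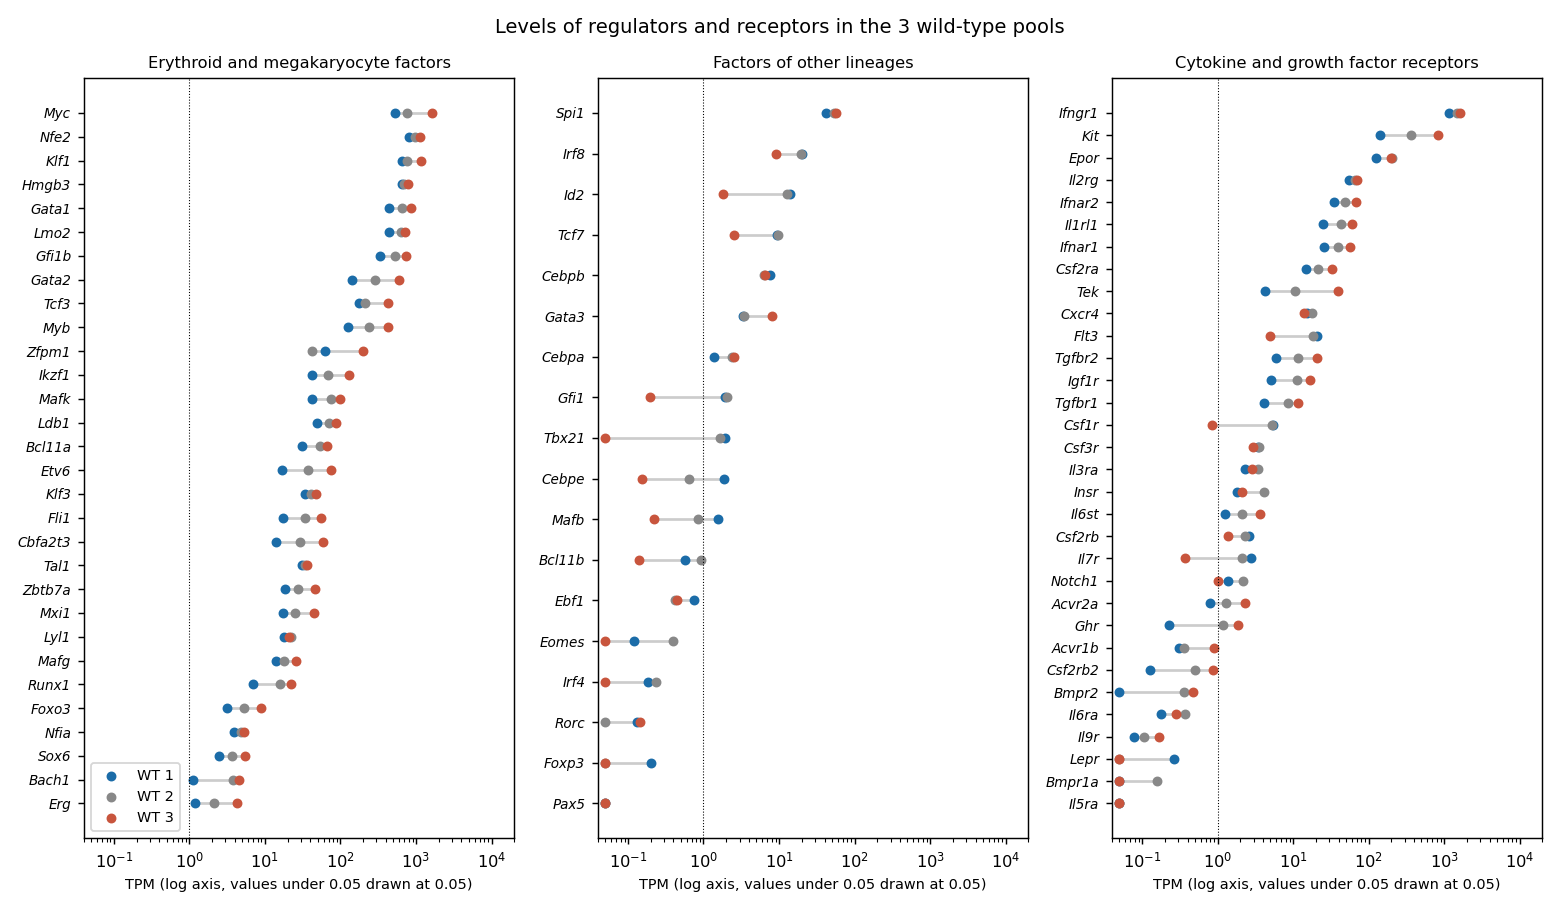
TPM (horizontal, log axis) of listed transcription factors and receptors in each pool, 1 point per pool, joined by a grey line over their range; the dotted line is at 1 TPM. The 30 erythroid and megakaryocyte factors lie above the line in every pool from Myc (968 TPM on average) to Erg (2.53 TPM). Of the 18 factors of other lineages 8 were on by CPM, near the 47.3% of protein-coding genes.

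Early erythroid genes were on in 22 of 25 cases and late ones in 19 of 22, beside 47.3% of protein-coding genes, at different levels. The median over those on was 150 TPM for the early list and 31.5 TPM for the late one. After Car1, the early list was led by Car2, a second carbonic anhydrase, at 3460 ± 373 TPM, by Apoe, the apolipoprotein, at 3392 ± 1248 TPM, and by Aqp1, the water channel, at 1015 ± 271 TPM. Icam4, a red cell adhesion protein, had a count of 0 in each pool. In the late list Bnip3l, which clears mitochondria from maturing red cells, led at 304 TPM, followed by Rhd, a blood group protein. Adult globin transcripts were present at 42.0, 56.3 and 27.4 CPM for Hbb-bs and 44.3, 48.8 and 34.6 CPM for Hba-a1. Embryonic Hbb-bh1, Hbb-y and Hba-x had a count of 0 in each pool. Counts of near-identical copies such as Hba-a1 and Hba-a2 or Hbb-bs and Hbb-bt are uncertain, because the handling of reads that map to several places is not given. Megakaryocyte and platelet genes were on in 27 of 34 cases, beside 47.3% of protein-coding genes, with a median of 14.4 TPM. Fermt3, which activates integrins, led them at 610, 827 and 1204 CPM. Rap1b, a small GTPase of the same pathway, ran the other way at 831, 476 and 336 CPM. Pf4, the platelet chemokine, was uneven at 19.5, 40.4 and 7.04 CPM. Vwf, the clotting factor, stood at 7.29, 14.4 and 20.03 CPM, so these 2 granule cargo genes were on at low levels.

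Heme synthesis and transport genes were on in 19 of 20 cases, beside 47.3% of protein-coding genes. Tmem14c, which carries heme precursors into mitochondria, led at 674 TPM, and the enzymes Urod and Alad followed at 458 and 433 TPM. The first step was uneven between its 2 isoforms. Alas1, the general form, took 88.6% ± 3.58 of their summed TPM, and the red cell form Alas2 stood at only 5.16, 5.61 and 3.38 CPM. Hmox1, which degrades heme and is high in macrophages, was among the most uneven of the list at 34.3, 17.2 and 3.67 CPM, while Hmox2 was level at 38.0, 38.7 and 30.7 CPM. Iron genes were on in 13 of 22 cases, nearer to the 47.3% of protein-coding genes, and were led by the ferritin chains Fth1 (1504 ± 199 TPM) and Ftl1 (684 TPM), the iron chaperone Pcbp1 (537 TPM) and Tfr2 (342 ± 110 TPM). Tfr2, the transferrin receptor that senses iron, took 89.0% ± 3.45 of the summed TPM of the 2 transferrin receptors, and Tfrc, the one that imports iron, took 11.04%. Tfr2 stood at 391, 432 and 552 CPM and Tfrc at 98.7, 96.3 and 67.6 CPM, so the order was the same in every pool. Hamp and Hamp2, which encode the iron hormone hepcidin, Ftmt and Cybrd1 were off. Tmprss6, the gene deleted in the other libraries of the series, stood at 0.227, 0.274 and 0 CPM in these wild-type cells, at or near the limit of 3 counts.

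Most pathways of central metabolism were on, and in several of the gene families examined 1 isoform took nearly all of the summed TPM. Other families were mixed. Of the pyruvate dehydrogenase kinases, Pdk3 took 61% and Pdk2 21.9%, and of the acetyl-CoA carboxylases, Acaca took 69.3% and Acacb 30.7%. Not every step of each pathway was examined. Glycolysis and sugar transport genes were on in 25 of 33 cases, beside 47.3% of protein-coding genes. Ldha took 99.4% ± 0.0778 of the summed TPM of the lactate dehydrogenases, Aldoa 99.6% of the aldolases, Hk1 97.7% ± 1.17 of the hexokinases and Eno1 96.3% ± 1.36 of the enolases. Less one-sided were Pkm with 80.2% ± 1.12 against Pklr, the red cell and liver pyruvate kinase, with 19.9%, and Pfkl with 70.1% ± 1.77 of the phosphofructokinases. Among the glucose transporters Slc2a3 took 78.9% ± 6.08 and Slc2a1 20.8%. These shares of glycolysis and glucose transporter genes held within about the same range in each pool, although Hk1 itself ran from 320 through 503 to 1160 CPM. Slc2a4, Eno2 and Pgk2, the forms of muscle and fat, of neurons and of testis, had 0 counts in all pools.

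**Figure D3:**
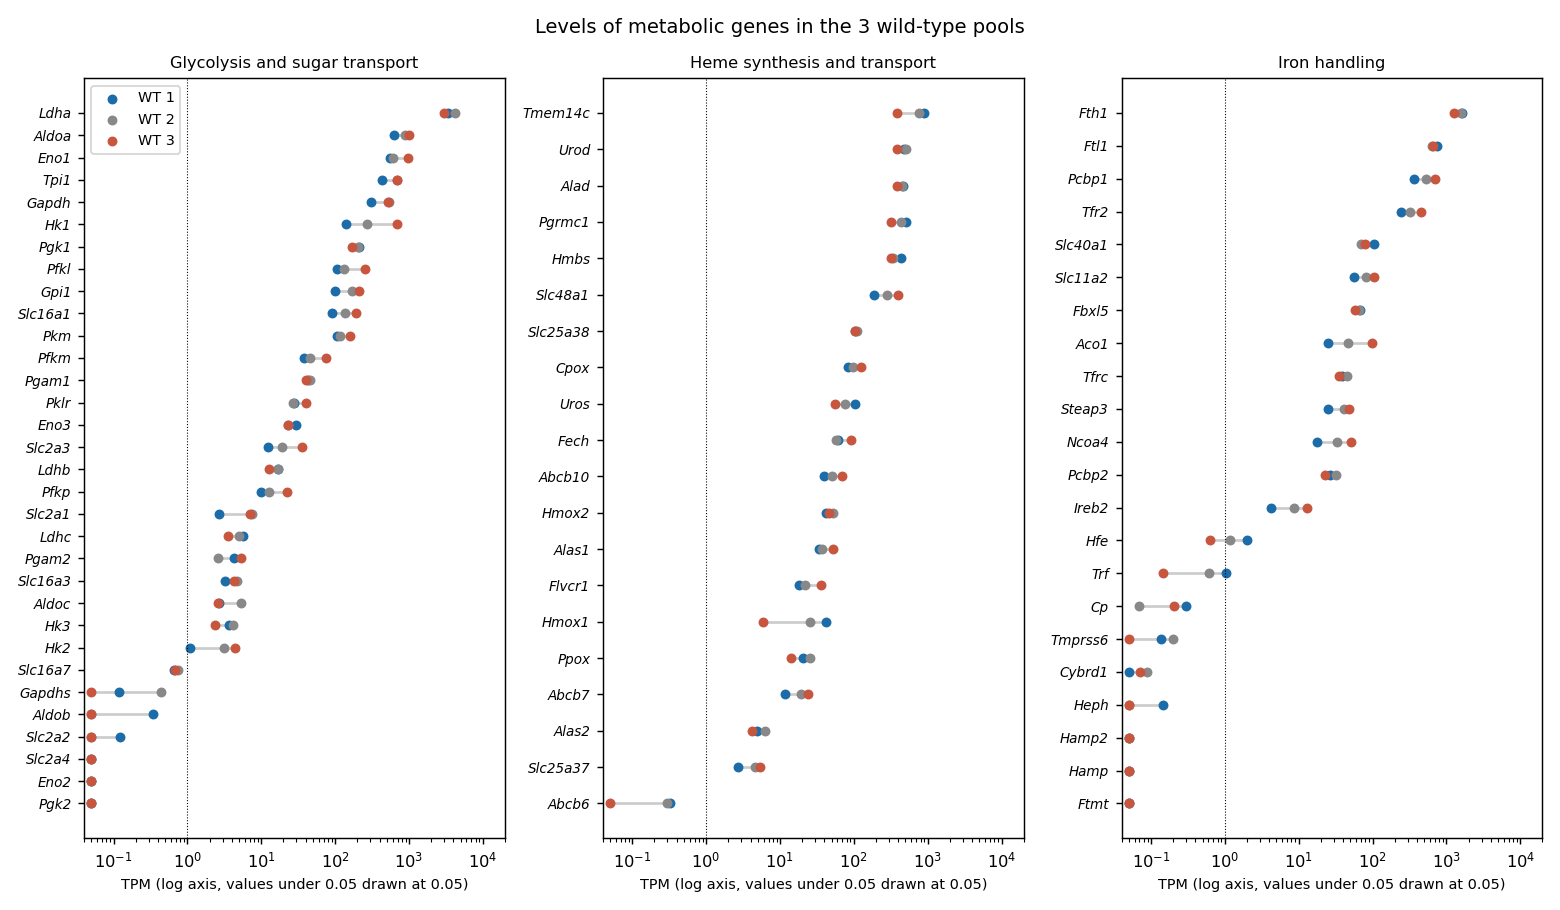
TPM (horizontal, log axis) of listed genes of glycolysis, of heme synthesis and of iron handling in each pool, 1 point per pool, joined by a grey line over their range; the dotted line is at 1 TPM and values under 0.05 are drawn at 0.05. Ldha leads glycolysis at 3495 TPM on average, Tmem14c leads heme synthesis at 674 TPM and Fth1 leads iron handling at 1504 TPM.

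The counts on in the next lists also stand beside 47.3% of protein-coding genes. The pentose phosphate genes were all on (9 of 9), led by Taldo1, the transaldolase, which was stable at 576, 568 and 547 CPM. Of the citric acid cycle list 29 of 31 were on with a median of 197 TPM, and 15 of the 29 (beside 34.5% of genes on) were stable. Its leading member Sdhd, a subunit of succinate dehydrogenase, was variable at 1668, 882 and 523 CPM. Sdha, another subunit, ran the other way at 527, 727 and 1173 CPM. The longest transcript of Sdhd is 1231 nt, and the pools differed along transcript length, as described further on. With that trend removed, the range of Sdhd went from 3.19-fold to 1.99-fold, and 0 genes of the list were variable. Fatty acid oxidation genes were on in 18 of 21 cases. Cpt1a took 99.2% ± 0.242 of the summed TPM of the carnitine palmitoyltransferases that admit fatty acids to mitochondria, and Cpt1b and the coactivator Ppargc1a were off. Fatty acid and cholesterol synthesis genes were on in 24 of 26 cases, led by Acly, which makes cytosolic acetyl-CoA, and Scd2 took 99.1% ± 1.44 over Scd1. Gluconeogenesis and glycogen was the least complete of the central metabolism lists at 9 of 15. Pck1, G6pc, Fbp2 and Gys2, whose products act in liver, kidney or muscle, had 0 counts in all pools, while mitochondrial Pck2 stood at 106, 141 and 158 CPM. One-carbon and serine genes were on in 20 of 23 cases, led by Phgdh, the first enzyme of serine synthesis, and the liver gene Mat1a had 0 counts.

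The cells carried the transcripts of division. All 25 DNA replication genes and all 25 mitosis genes were on, against 47.3% of protein-coding genes. Mcm6, a subunit of the replicative helicase, stood at 798.5, 895 and 1388 CPM, and Pcna, the sliding clamp, at 547, 356 and 238 CPM. These 2 genes of 1 process thus ran in opposite order over the pools, which differed along transcript length, as described further on. Medians of the DNA replication list were -0.14, -0.11 and 0.22 on the log2 scale in WT 1, WT 2 and WT 3. With the length trend removed they were 0.05, -0.08 and 0.01. Of the G1 cyclins, Ccnd2 and Ccnd3 took 49.7% ± 4.31 and 49.6% ± 4.04 of the summed TPM and Ccnd1 took 0.700%. Cdkn2a, the p16 and p19 tumour suppressor locus, was off. Immediate early genes, which respond quickly to growth and stress signals, were on in 13 of 18 cases, with Dusp1 at 718, 466 and 394 CPM and Fos at 530, 476 and 291 CPM. Of these 13, 11 were highest in WT 1, as were 4270 of all 11485 genes on.

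Spread between pools was larger than counting error at every level. The median CV of genes on was 28.4% over the 3 pools, and counting alone would give 4.30%. In the eighth of genes on with the lowest levels the 2 values were 31.2% and 16.7%, and in the highest eighth 28.1% and 1.57%. The spread therefore hardly fell as counts rose. Of the genes on, 3957 (34.5%) were stable and 1299 (11.3%) were variable. The pools differed unequally. Over the 11485 genes on, Pearson's r of log2 CPM was 0.968 between WT 1 and WT 2, 0.962 between WT 2 and WT 3 and 0.902 between WT 1 and WT 3, a description across genes, which are not replicates. Between WT 1 and WT 3, 33.0% of genes on were over 2-fold apart, and in the other pairs 6.03% and 8.27%.

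The differences followed transcript length. Genes whose longest annotated transcript was under 500 nt were above the 3-pool mean in WT 1, with a median log2 difference of 0.62, and below it in WT 3, with -0.63. Genes of 6000 nt or more showed the opposite, -0.45 in WT 1 and 0.42 in WT 3. In WT 2 the medians lay between -0.05 and 0.02 in every length group. Across 11478 genes on, Spearman's rho between length and the log2 difference was -0.58, -0.06 and 0.57 in WT 1, WT 2 and WT 3. Of the variable genes, the 650 highest in WT 1 had a median length of 1078 nt and the 586 highest in WT 3 had 5570 nt. Kit (5241 nt) and Gata2 (3571 nt), the 2 variable markers, followed the same direction, and after a running median over length was removed their ranges were 2.56-fold and 2.22-fold. By the same adjustment, chosen after seeing the data, 5744 of 11478 genes were stable and 531 were variable.

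**Figure D4:**
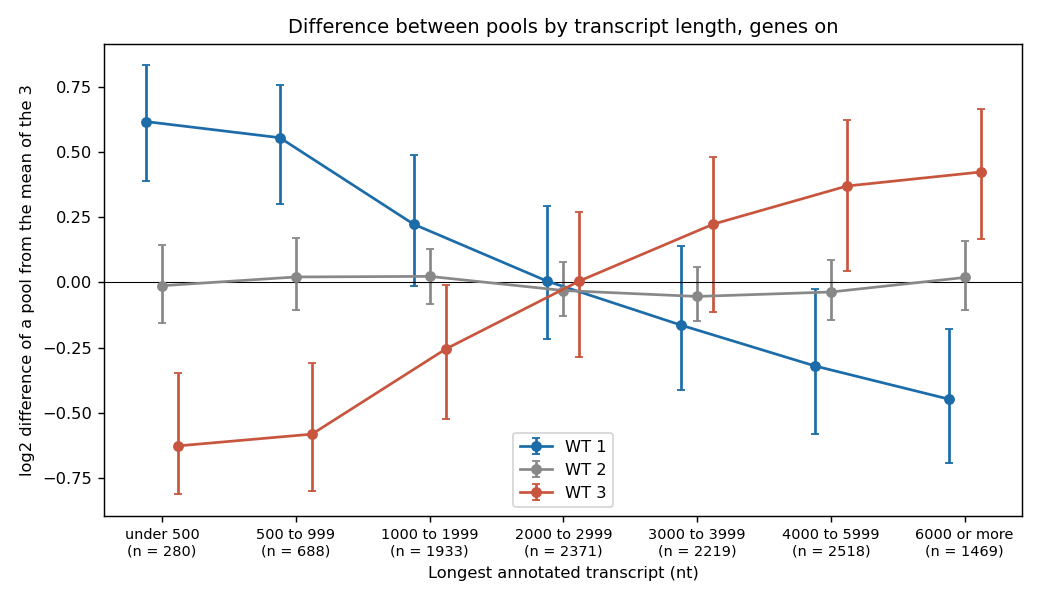
Median log2 difference of each pool from the mean of the 3 (vertical) for genes on, grouped by the length of the longest annotated transcript (horizontal, with the number of genes); bars are interquartile ranges. WT 1 falls from 0.62 to -0.45 and WT 3 rises from -0.63 to 0.42 as length grows, while WT 2 stays near zero.

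Other properties also differed between the pools, and their parts cannot be told apart. Cytosolic ribosomal protein genes, which are short (median 1094 nt), took 6.16%, 4.79% and 2.63% of counts in WT 1, WT 2 and WT 3, and 77 of 83 were highest in WT 1. Mitochondrial genes took 0.816%, 0.936% and 0.226%. The highest of them, mt-Cytb of respiratory complex III, stood at 2504, 2675 and 763 CPM, so WT 3 stood apart from the other pools. Sex also differed. Ddx3y, on the Y chromosome, stood at 58.7, 67.1 and 0.0734 CPM and Xist, the RNA of the inactive X, at 0, 0.0684 and 25.8 CPM, so the WT 1 and WT 2 pools carried male RNA and WT 3 female RNA. The part of length, mitochondrial share, sex or depth in the levels given here was not tested.

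Genes of other blood cells were detected at levels that differed by pool. Their counts on stand beside 47.3% of protein-coding genes and their variable genes beside 11.3% of genes on. Many of the genes on were at low levels. At 5 CPM in each pool, 4 macrophage and monocyte genes, 5 neutrophil genes and 4 eosinophil, basophil and mast cell genes were on. The B and plasma cell list then had 2 on and the T and NK cell list 1. Macrophage and monocyte genes were on in 12 of 19 cases, with a summed level of 384, 212 and 122 CPM in WT 1, WT 2 and WT 3, and 10 of the 12 were variable. Lyz2, the lysozyme of myeloid cells, stood at 167, 94.6 and 46.6 CPM, and the complement genes C1qa, C1qb and C1qc, of resident macrophages, each ran in the same order. Neutrophil genes were on in 12 of 19 cases at 403, 278 and 98.0 CPM in sum, with the primary granule genes Mpo at 150, 83.5 and 28.8 CPM and Elane at 80.4, 24.7 and 2.201 CPM, while the mature marker Ly6g was at 0, 0 and 0.220 CPM. Eosinophil, basophil and mast cell genes were on in 11 of 19 cases at 830, 256 and 165 CPM in sum. Most of the excess in WT 1 was Prg2, the eosinophil granule protein, at 475, 19.97 and 46.9 CPM, and Mcpt4, Tpsb2 and Tpsab1 of connective tissue mast cells had 0 counts. B and plasma cell genes were on in 5 of 15 cases, and without WT 3 in 9. All 5 were highest in WT 1, among them Ighm, the immunoglobulin M heavy chain, at 123, 55.5 and 21.9 CPM. Outside those 5, Jchain at 0.227, 27.4 and 0.514 CPM and Igkc at 3.13, 55.9 and 0.734 CPM were highest in WT 2, and Pax5 was off. T and NK cell genes were on in 4 of 15 cases, and without WT 3 in 12. Nkg7, a granule protein, was an exception at 380, 359 and 237 CPM, while Cd3e, the T cell receptor chain, stood at 3.71, 4.38 and 0.220 CPM. Whether these transcripts came from other cells in the sort or from the progenitors was not tested. Of 24 genes of other organs, only Mbp, a myelin gene, was on, and 16 were off.

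**Figure D5:**
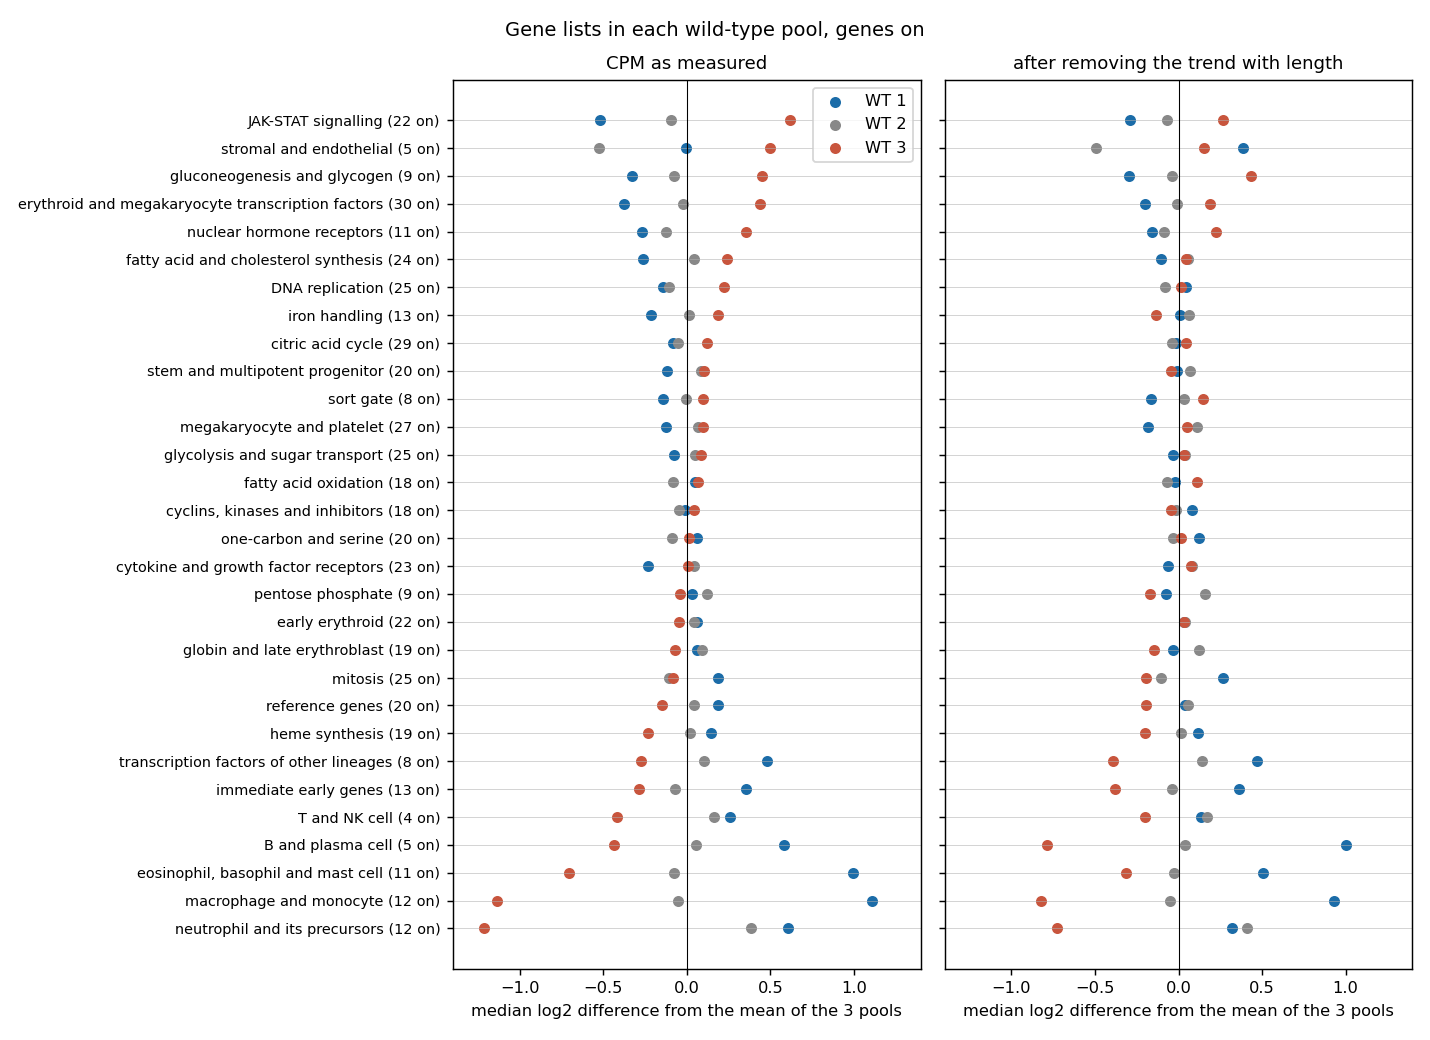
Median log2 difference of each pool from the mean of the 3 over the genes on of each list, as measured (left) and after the trend with length was removed (right); lists with fewer than 3 genes on and the 5 markers are left out. Macrophage genes stand at 1.10, -0.05 and -1.14 as measured and at 0.93, -0.05 and -0.82 after adjustment, and JAK-STAT genes at -0.52, -0.09 and 0.62 and at -0.29, -0.07 and 0.27.

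Removing the length trend narrowed the differences of some gene sets without ending them, and widened those of others. For ribosomal protein genes the medians went from 0.67, 0.08 and -0.76 to 0.27, 0.07 and -0.31 in WT 1, WT 2 and WT 3. Those of the erythroid and megakaryocyte factors went from -0.37, -0.02 and 0.44 to -0.20, -0.01 and 0.19, so the factors stayed highest in WT 3. Those of the neutrophil genes went from 0.61, 0.38 and -1.21 to 0.32, 0.41 and -0.73. Medians of the B and plasma cell genes, with 5 on, widened from 0.58, 0.05 and -0.43 to 1.0, 0.04 and -0.79. Medians of the mitosis genes went from 0.18, -0.11 and -0.09 to 0.27, -0.11 and -0.19.

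The steadiest gene with a mean of at least 50 CPM, among 4739, was Cdc42, a small GTPase that controls cell shape, at 745, 743 and 744 CPM. Puf60, a splicing factor, was within 1.02-fold at 461, 459 and 468 CPM. The common reference genes were about as even as genes on in general. Of 20 such genes, all on, 6 were stable and 2 variable, beside 34.5% and 11.3% of genes on. Gapdh stood at 522, 764 and 670 CPM, Actb at 935, 2282 and 1543 CPM and Hprt at 883, 517 and 281 CPM. Polr2a, the large subunit of RNA polymerase II, was the most uneven of them at 24.96, 58.6 and 129.5 CPM. Most variable of all genes at this level was Prg2, at 23.8-fold. It was followed by Dntt, the terminal transferase of early lymphoid cells, among protein-coding genes, at 149, 95.9 and 21.6 CPM, and by the long genes Frmd4a and Plxnc1, which were highest in WT 3 (169 and 456 CPM) and lowest in WT 1 (28.4 and 77.2 CPM).

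Over the lists as a whole, 653 different genes were examined, of which 489 were on, 48 off and 116 between. Of the 489 on, 159 were stable and 77 variable.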

How the data were processed

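RNA-seq of sorted wild-type progenitors gave 3 libraries, each a pool of 3 mice. The values the authors deposited are unscaled whole-number read counts per gene. FastQC 0.11.5, STAR 2.5.3a and edgeR were used, per the submitters' processing notes, with a mouse build (GRCm38.p3) and a human one (GRCh38.p3) listed. Which program counted the reads, with which strand setting and annotation, is not given in the sources used here, so counts of paralogs, pseudogenes, overlapping and antisense genes are uncertain. Total counts per library, between 13666585 and 22986837, limit precision at low levels, and limits from counts cover counting error only.

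From the counts, CPM were computed with TMM-scaled library sizes (edgeR 4.0.16, R 4.3.3) and TPM with the longest transcript of GENCODE M21, over genes of at least 200 nt. Log2 differences add 0.5 CPM. A running median over 501 genes ordered by length gave the length-adjusted values. Values were compared among the 3 libraries only, with no test, and the scripts were tested on simulated data. Promoter windows came from RefSeq (GRCm38.p6), matched by symbol, identifier or synonym.

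The members and the 33 gene lists were chosen with earlier results of these data known. Named genes were the sort-gate genes and markers, the 15 highest by CPM and by TPM, up to 4 highest and 3 lowest members per list, and the 10 steadiest and 10 most uneven genes of at least 50 CPM. Further genes were picked with their values in view. Some items are not reported here. Alternatives were DESeq2 1.42.0 size factors, unscaled totals, other thresholds, other lengths (for the correlations with length) and each library left out.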

Additional observations from a re-analysis of the deposited data

How the results depend on the processing

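The numbers of genes on and off, and of list members on (489), stayed within 1.5 times the value given under DESeq2 size factors, unscaled total counts, 5 CPM, 1 TPM and each library left out, as far as each was run. The exception was genes off, at 8650 when only protein-coding genes were counted. Stable genes ranged from 4698 to 8591, variable genes from 108 to 1246 and the median CV from 18.2% to 35.2% when 1 library was left out. Without WT 1 the counts were 7462 stable and 175 variable, without WT 3 they were 8591 and 108, and fewer libraries by themselves narrow a highest-to-lowest range. Among genes of at least 10 CPM 654 were variable, and after the length adjustment, chosen after seeing the data, 531 were. The correlations with length kept their sign for coding length (-0.61, -0.07 and 0.61) and exon union length (-0.53, -0.06 and 0.53 in WT 1, WT 2 and WT 3). Of 33 lists, 10 moved by over 1.5 times in members on at 5 CPM. Of 12 genes followed, the range of Kit fell to 2.07-fold without WT 1 and 2.12-fold without WT 3, and that of Gata2 to 1.92-fold and 1.64-fold. Without WT 1, Prg2 was 2.35-fold apart and Fli1 went from 2.37-fold to 1.49-fold. Without WT 3, Myc went from 2.28-fold to 1.20-fold. After the length adjustment Tfrc went from 1.46-fold to 2.43-fold, so it was then not stable. No paired analysis was possible because 1 group was described and no result comes from a test.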

Other observations

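The length adjustment used the longest annotated transcript, and its own choices can be seen in what it left. Of the 531 genes over 3-fold apart after it, 280 were also over 3-fold apart before it, and 434 were highest in WT 1. Those 434 had a median longest transcript of 3838 nt and a median coding length of 816 nt, while all genes on had 3184 nt and 1377 nt. Mad2l1, a spindle checkpoint gene whose longest annotated transcript is 7557 nt, was one of them, at 348, 183 and 80.1 CPM in WT 1, WT 2 and WT 3. Which transcript form each pool carried was not tested.

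Among genes not listed as protein-coding, the highest was Cct6a, at 1351, 938 and 684.5 CPM. It is listed as a processed transcript although the name is that of a chaperonin subunit, so it is not counted as non-coding RNA here. Gas5, a host of small nucleolar RNAs, stood at 527, 437 and 258 CPM. Malat1, a nuclear long RNA of 6983 nt, stood at 688, 353 and 174 CPM, so it ran against the direction of other long genes. Within the mitochondrial genome, levels per length differed widely between protein genes, with 3760 TPM for mt-Cytb, 41.4 TPM for mt-Co2 and 4.33 TPM for mt-Nd3. Counts of mitochondrial genes with near-identical nuclear copies are uncertain.

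Of the 22 early erythroid genes on, 10 were highest in WT 1, 3 in WT 2 and 9 in WT 3, with list medians of 0.06, 0.04 and -0.05 on the log2 scale, so the list as a whole had no clear direction. Among those picked for their spread, Blvrb, a biliverdin reductase, stood at 906, 582 and 333 CPM, Cldn13, a claudin, at 66.1, 38.7 and 12.5 CPM and Sphk1, a lipid kinase, at 185, 92.4 and 53.3 CPM. Muc13, a mucin, ran the other way at 289, 473 and 621 CPM. Cyclin E2 (Ccne2) stood at 137, 37.1 and 26.05 CPM, a range of 5.28-fold that was 6.07-fold after the length adjustment, while the related Ccne1 stood at 74.2, 40.3 and 38.7 CPM.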
